A study of Mus musculus with 4 samples.

Results

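Type I interferon genes and interferon receptor genes were followed in SVEC cells, a line of mouse endothelial cells, which form the lining of vessels. The members were all genes whose spots carried a single symbol of the form Ifna plus a number, Ifnb1, Ifnar1, Ifnar2, Ifngr1 or Ifngr2. This gave 12 of the 11138 genes on the array, on 28 of 24344 spots with 1 gene symbol: 8 Ifna genes, Ifnb1, and the receptor genes Ifnar1, Ifnar2 and Ifngr1. No spot was matched to Ifngr2, which is not analysed here. Cells in culture received lipopolysaccharide (LPS), a component of the outer wall of Gram-negative bacteria, for 4 h or 24 h. The labels of 3 of the 4 arrays state 50 ng/ml, and the partner in each hybridisation was RNA of control cells. Amplified RNA of both conditions was hybridised together in 2 dyes, with LPS in Cy5 on the first array of each time and in Cy3 on the second. No genetic change, clone or passage is named in the labels.

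Each value is a log2 ratio of LPS over control for a spot, set relative to the median spot of its array, and the arrays with LPS in Cy3 were turned in sign. That direction is likely but not stated. It follows the dyes named in the labels, and if the ratios were formed the other way round, higher and lower would be exchanged throughout. As the labels call the second array of each time a dye reversal, the 2 arrays count as 1 pair of RNAs here. The SD given with a mean is therefore the spread of those 2 arrays and holds no spread between cultures, so no test was made at a single time. A ratio carries no level, so the values do not show whether a transcript was present in either RNA, and the labelled cell type could not be checked from marker levels. A ratio per culture also cannot separate fewer expressing cells from less RNA per cell. Across all genes, the correlation between the arrays of a time was 0.48 after 4 h and only 0.10 after 24 h (Pearson's r). Genes are not independent replicates. The median SD of the 2 arrays was alike over all genes, at 0.31 and 0.32, and was 0.31 and 0.53 over the members. Spots spread more widely at 4 h, with an SD of 1.44 and 1.43 on the arrays, against 0.98 and 1.07 at 24 h. The lower r at 24 h therefore does not by itself show that the later values are less repeatable.

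Type I interferons are secreted antiviral proteins. Ifnb1 encodes the single interferon beta, and the Ifna genes encode a family of closely alike interferon alpha proteins from short genes without introns. All of them signal through one receptor built of Ifnar1 and Ifnar2, which works through the kinases Tyk2 and Jak1 to transcription factors that include Stat2 and Irf9. Interferon gamma uses a separate receptor built of Ifngr1 and Ifngr2. LPS is known to reach Ifnb1 through Tlr4, the adaptor Ticam1 and the factor Irf3, and Irf7 widens the response to the Ifna genes.

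The stretches that end at the TATA-like element in front of the ligand genes are shown, because this is where interferon regulatory factors are known to act and because it shows how alike the family is. They are from RefSeq, build GRCm38.p6, whose promoter table held 11 of the 12 members (not Ifna7). Capitals mark AANNGAAA, the core letters of an interferon regulatory factor site, and, in Ifnb1, also GGAANTTCC, a form of the NF-kB site that reads the same on both strands. The stretches, 95 bases each, lie at chr4:88849900-88849994 for Ifna1 (plus strand), chr4:88835338-88835432 for Ifna5 (plus), chr4:88841677-88841771 for Ifna4 (plus), chr4:88819774-88819868 for Ifna11 (plus), chr4:88592478-88592572 for Ifna9 (minus) and chr4:88522869-88522963 for Ifnb1 (minus).
Ifna1: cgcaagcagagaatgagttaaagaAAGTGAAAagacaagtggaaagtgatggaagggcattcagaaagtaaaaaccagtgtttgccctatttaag
Ifna5: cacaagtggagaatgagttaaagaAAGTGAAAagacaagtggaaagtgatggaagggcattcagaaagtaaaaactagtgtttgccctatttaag
Ifna4: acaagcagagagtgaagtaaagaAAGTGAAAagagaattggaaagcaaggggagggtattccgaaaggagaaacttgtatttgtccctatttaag
Ifna11: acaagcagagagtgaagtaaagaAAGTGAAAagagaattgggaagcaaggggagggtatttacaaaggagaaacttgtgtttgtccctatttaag
Ifna9: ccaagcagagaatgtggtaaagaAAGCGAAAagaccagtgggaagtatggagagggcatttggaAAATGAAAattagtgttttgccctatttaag
Ifnb1: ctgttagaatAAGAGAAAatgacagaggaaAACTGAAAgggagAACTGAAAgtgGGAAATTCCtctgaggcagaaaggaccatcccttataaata

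In the 250 bases before the annotated start, searched on both strands, AANNGAAA occurred 3 times in Ifna4, Ifna11 and Ifnb1, 2 times in Ifna2, Ifna5 and Ifna9, once in Ifna1 and Ifna6, and in none of the receptor genes Ifnar1, Ifnar2 and Ifngr1. Of all 32851 promoters in the table, 21.3% held it at least once and 4.20% at least 2 times. Counted from the annotated start, the first core marked in the stretches shown began at -116 in Ifna4 and -122 in Ifna11. It began at -163 in Ifna1 and Ifna5 and at -164 in Ifna9. The 250 bases thus cover different parts of these promoters, so the counts cannot be ranked between genes. GGAANTTCC occurred in Ifnb1 alone among the members and in 0.813% of all promoters. Stretches of Ifna6 and Ifna7 were not aligned. The stretch of Ifna2, not shown, and that of Ifna11 were identical at 96.8% of aligned positions, the most of any aligned pair. Those of Ifna1 and Ifna5 were identical at 95.8% of aligned positions. The stretch of Ifna4 was identical to those of Ifna11 and Ifna2 at 94.7% each, and to that of Ifna1 at 80.2%. A match of letters is a description and not a measured site.

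After 4 h, 2 of the 9 ligand genes, Ifna4 and Ifna1, were lower by the fold rule and 1, Ifna9, was higher. Ifnb1, at a mean of -0.37, did not meet the rule. The rule demands a mean of at least 1 in size on the log2 scale (2-fold) with each array at least 1.5-fold the same way. Over all 11138 genes, 5.77% were lower and 8.74% higher at 4 h by this rule, so the 1 higher member of 12 is close to the background share, while the 2 lower ones are a larger share than that of all genes, on a count of 2 that was not tested. None of the receptor genes met the rule at 4 h. The median of the ligand means was -0.27 and that of the receptor means -0.62, against 0.00 for all genes. Both arrays were below 0 for 6 of the 12 members, and for 31.6% of all genes.

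Ifna4, an interferon alpha that is known to be induced early, had the lowest ratio of the members at 4 h. Its spots lay at -2.16 and -2.76 with LPS in Cy5 and at -1.96 and -2.03 with LPS in Cy3. All 4 spots were thus low and the arrays were alike. The mean was -2.23 ± 0.33 (SD, 2 arrays), or 4.68-fold lower, and 1.25% of all genes had a lower mean. After 24 h the arrays differed, at -1.02 with LPS in Cy5 and 0.01 with LPS in Cy3, a mean of -0.51 ± 0.73.

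Ifna1, the next gene along the chromosome, lay at -1.92 and -1.91 on its 2 spots with LPS in Cy5, and at -0.76 and -0.75 with LPS in Cy3. Adjacent spots gave nearly the same ratio while the arrays stood apart. The mean was -1.33 ± 0.82 (SD, 2 arrays). Without the Cy5 array the ratio was -0.75, short of 2-fold. Both arrays were also below 0 after 24 h, at -0.69 and -0.36, a mean of -0.52 ± 0.24.

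Ifna6 was represented by 2 annotation entries, whose spots went different ways at 4 h. Spots 15027 and 15028 lay at -1.66 and -1.84 with LPS in Cy5 and at -1.22 and -1.16 with LPS in Cy3, a mean of -1.47 ± 0.40 (SD, 2 arrays) that would pass the fold rule by itself. Spots 24737 and 24738, which carry the same gene symbol, lay at 0.26 and 0.42 and at 0.26 and -0.30, a mean of 0.16 ± 0.25. Averaged as 1 gene, Ifna6 lay at -0.65 ± 0.07, and that small SD hides entries that disagree. After 24 h the order of the entries was the opposite, with means of 0.56 ± 0.50 for the first and -0.75 ± 0.58 for the second. Ifna2 also had 2 entries. Its first lay at -0.91 and -0.35 on the 4 h arrays and its second at 0.15 and 0.03. The oligonucleotide sequences were not used here, so signal from one Ifna gene in the spots of another cannot be told apart from the gene's own.

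Ifna9 had the highest ratio of the members at 4 h and the lowest at 24 h. With LPS in Cy5 its 4 h spots lay at 3.18 and 2.96. With LPS in Cy3 they lay at -0.54 and 4.83, so the neighbouring spots of that array disagreed in sign. The mean was 2.61 ± 0.65 (SD, 2 arrays), which 98.0% of genes did not reach. A gap between neighbours of 5.37 or more was found in 1.39% of the 12172 neighbouring pairs with the same annotation on that array, where the median gap was 0.27. With the first spot of each pair alone the 4 h mean was 1.32 and the gene no longer met the rule. With the second alone it was 3.90.

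After 24 h, Ifna9 was the only member past the fold rule, and it was lower. Its spots lay at -0.71 and -0.80 with LPS in Cy5 and at -2.03 and -4.91 with LPS in Cy3. All 4 spots were below 0, but their size differed between arrays and between neighbours. The mean was -2.11 ± 1.92 (SD, 2 arrays), and 0.117% of genes had a lower mean. Without the Cy3 array it was -0.76, short of 2-fold. Over all genes at 24 h, 0.799% were lower and 1.68% higher by the rule.

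**Figure D1:**
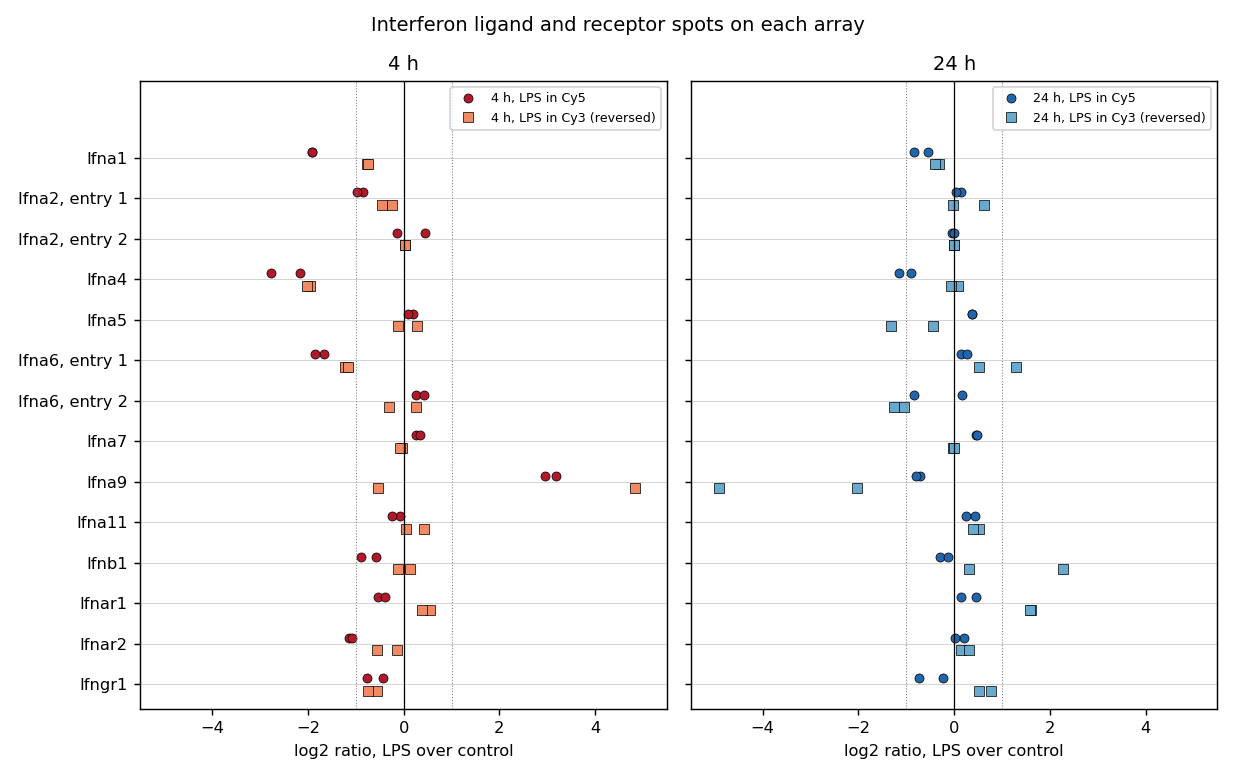
Log2 ratio of LPS over control (horizontal axis) of every member spot at 4 h (left) and 24 h (right), with circles for the array with LPS in Cy5 and squares for the reversed array; dotted lines mark 2-fold. Ifna4, Ifna1 and the first entry of Ifna6 lie left of 0 on both 4 h arrays, and the Ifna9 spots of the reversed 4 h array lie at -0.54 and 4.83.

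Ifnb1, the interferon beta gene and the ligand most directly tied to Tlr4, did not meet the rule at either time. At 4 h its spots lay at -0.89 and -0.58 with LPS in Cy5 and at -0.12 and 0.12 with LPS in Cy3, a mean of -0.37 ± 0.52 (SD, 2 arrays). At 24 h they lay at -0.29 and -0.12 and at 0.31 and 2.28, a mean of 0.55 ± 1.06. The 24 h arrays were on different sides of 0. Without the 24 h array that had LPS in Cy5 the ratio was 1.30, which rests on the 1 spot at 2.28. No ratio of at least 2-fold higher was thus found for Ifnb1 on both arrays of a time, and smaller ratios were not resolved at this spread.

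The means of the other Ifna genes lay between -0.27 and 0.40 at both times, though single arrays lay further out. Ifna5 had 4 h arrays at 0.14 and 0.08 and 24 h arrays at 0.37 and -0.88. Ifna7 lay at 0.30 and -0.05 at 4 h and at 0.47 and -0.01 at 24 h. Ifna11 lay at -0.16 and 0.24 at 4 h, and at 24 h both of its arrays were above 0, at 0.34 and 0.46, a mean of 0.40 ± 0.08 (SD, 2 arrays). As a gene, Ifna2 lay at -0.27 ± 0.15 at 4 h and 0.09 ± 0.08 at 24 h. On the 24 h arrays, 1 member spot with LPS in Cy5 and 3 with LPS in Cy3 were at a ratio of exactly 1. These belonged to Ifna2 and Ifna7. Of all spots on those arrays, 10.8% and 10.1% were at that ratio. On the 4 h arrays, 0 member spots were, against 16.4% and 6.29% of all spots.

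Of the aligned pairs with the most alike upstream stretches, some had like and some unlike ratios at 4 h. Ifna2 and Ifna11, at 96.8% identity, lay at -0.27 and 0.04. Ifna1 lay at -1.33 and Ifna5, 95.8% identical to it there, at 0.11. Ifna4 lay at -2.23, while Ifna11 and Ifna2, each 94.7% identical to it, lay at 0.04 and -0.27. The Ifna2 value is an average of entries at -0.63 and 0.09. In the RefSeq order of protein-coding genes on chromosome 4, Ifna7, Ifna11, Ifna6, Ifna5, Ifna4 and Ifna1 follow one another with no other protein-coding gene between them, and their 4 h means in that order were 0.13, 0.04, -0.65, 0.11, -2.23 and -1.33. The lower genes Ifna4 and Ifna1 are thus neighbours at one end of the run, and Ifna9 lies apart, between Ifna14 and Ifna12.

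The receptor means were 0.00 or lower after 4 h and above 0 after 24 h, and none met the fold rule. Ifnar2, the chain that binds ligand most tightly, had spots at -1.14 and -1.07 with LPS in Cy5 and at -0.14 and -0.56 with LPS in Cy3 at 4 h. These gave a mean of -0.73 ± 0.54 (SD, 2 arrays). At 24 h the arrays were at 0.11 and 0.22, a mean of 0.17 ± 0.08, so both arrays of one time lay on the other side of 0 from both of the other.

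Ifngr1, the ligand-binding chain of the interferon gamma receptor, gave like values on the 4 h arrays, at -0.59 with LPS in Cy5 and -0.66 with LPS in Cy3. Its mean was -0.62 ± 0.05 (SD, 2 arrays), or 1.54-fold lower. At 24 h the arrays were on different sides of 0, at -0.48 and 0.65, a mean of 0.08 ± 0.80.

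Ifnar1, the other chain of the type I receptor, lay at -0.46 and 0.47 on the 4 h arrays, a mean of 0.00 ± 0.65 (SD, 2 arrays). At 24 h its spots lay at 0.14 and 0.46 with LPS in Cy5 and at 1.60 and 1.58 with LPS in Cy3. The mean was 0.95 ± 0.91, or 1.93-fold higher, the highest mean of any member at 24 h. It did not meet the rule, since the mean fell short of 2-fold and the Cy5 array, at 0.30, short of 1.5-fold; 96.0% of genes had a lower mean. Without the Cy5 array it was 1.59. At both times the Cy3 array gave the higher ratio for Ifnar1.

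**Figure D2:**
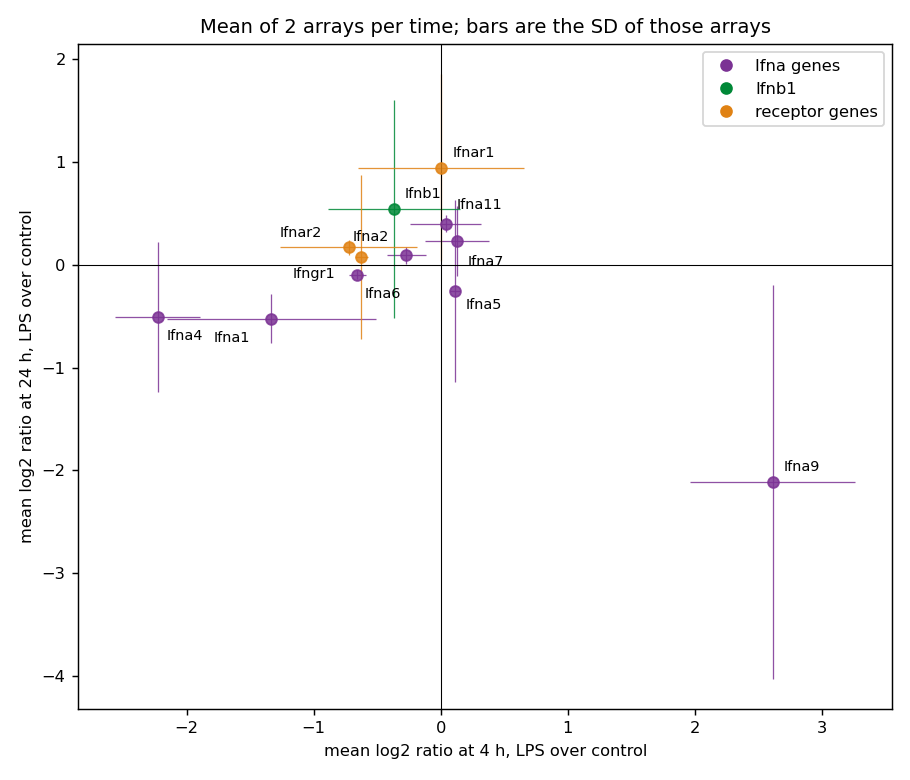
Mean log2 ratio of LPS over control at 4 h (horizontal) against 24 h (vertical) for the 12 members, with bars for the SD of the 2 arrays of a time. Most members lie within 1 of 0 on both axes, Ifna4 and Ifna1 lie to the left at -2.23 and -1.33, and Ifna9 lies alone at 2.61 and -2.11.

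Between the times, Ifna4 was higher and Ifna9 lower at 24 h than at 4 h by the rule for a difference, which demands means at least 1 apart and both arrays of a time beyond both of the other. This was 1 of 12 members each way, against 8.22% of all genes higher and 9.99% lower. Ifna4 differed by 1.72, from arrays at -2.46 and -1.99 to arrays at -1.02 and 0.01. Ifna9 differed by -4.72, from 3.07 and 2.15 to -0.76 and -3.47. The differences of the other members were between -0.36 (Ifna5) and 0.94 (Ifnar1). Without the 4 h array that had LPS in Cy3, 5 members and 1226 of the 11138 genes were higher at 24 h by this rule, and without the 24 h array that had LPS in Cy5, 4 members and 1576 genes were. Whether the times share control RNA is not stated, so values at both times are given side by side.

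A response shared by both times was fitted with limma on the 2 pair means, with Benjamini-Hochberg adjustment over all genes. It called 0 of 12 members and 0 of 11138 genes, or 0%, at an adjusted p under 0.05. At an unadjusted p under 0.05 it had 0 members and 513 genes. The lowest adjusted p of a member was 0.761, for Ifna1 (mean of both times -0.93, below 0 on 4 of 4 arrays) and Ifna4 (-1.37, below 0 on 3 of 4 arrays). Taking the 4 arrays as independent, limma also called 0 members and 0 genes. At an unadjusted p under 0.05 it had 2 of 12 members whether or not a dye term was fitted. The share of all genes was 9.64% with that term and 11.2% without. This fit counts the 2 arrays of 1 RNA pair as replicates, so its p-values do not measure spread between cultures. With 2 RNA pairs and 1 residual degree of freedom, a p that misses the threshold does not show that ratios were 0.

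**Figure D3:**
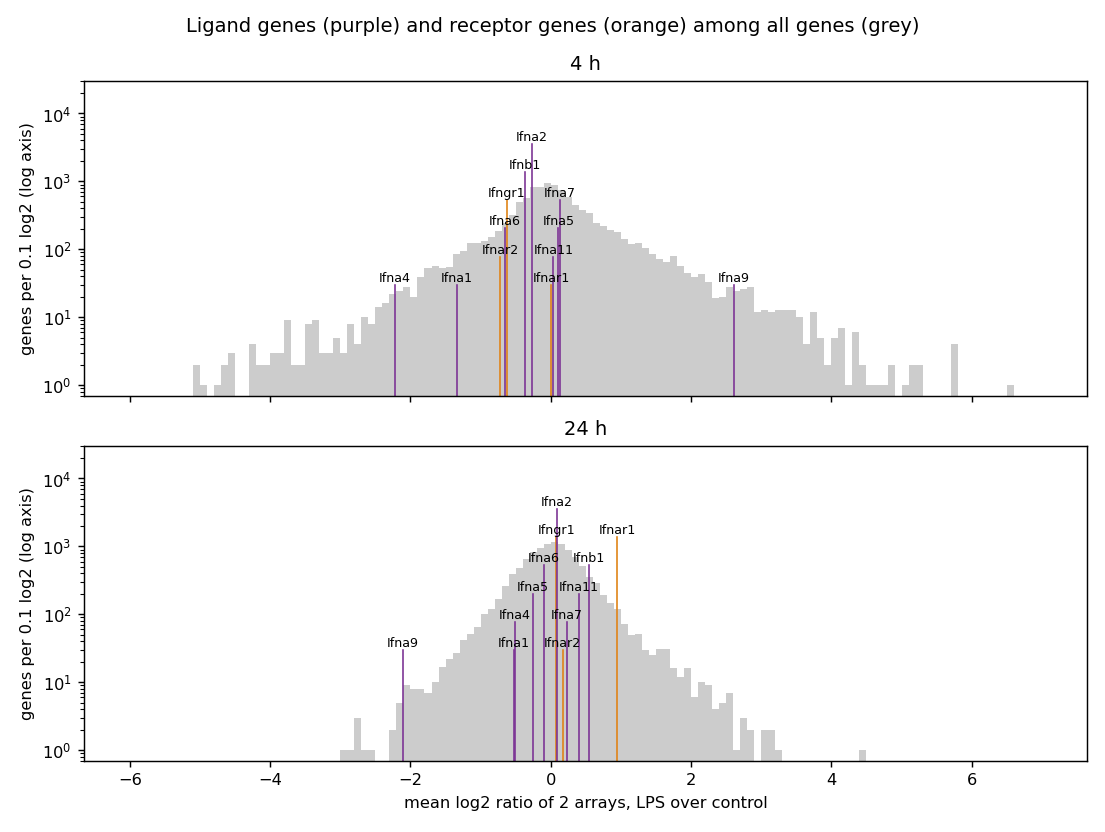
Number of genes (vertical, log axis) by mean log2 ratio of LPS over control (horizontal) at 4 h and 24 h, with purple lines for ligand genes and orange lines for receptor genes; the height of a line has no meaning. Ifna4 at -2.23 and Ifna9 at 2.61 lie in the outer parts of the 4 h distribution, and Ifna9 at -2.11 in the outer part of the 24 h one.

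All 4 h means depend on what the arrays are centred on. A list of 28 measured abundant transcripts, such as actins and glycolytic enzymes, lay around 2.02 after 4 h and around 0.09 after 24 h (list medians). Centring on that list shifted every 4 h mean by -1.97 and every 24 h mean by -0.16. Then 11 of the 12 members were lower at 4 h, as were 82.8% of all genes, and Ifna9 lay at 0.64, so the higher call was lost. The part of abundance in the members' values was not tested, since no intensities were in the table used. Quantile normalization and scaling of the arrays to one spread kept the calls of Ifna1, Ifna4 and Ifna9 at 4 h and of Ifna9 at 24 h.

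The other genes of the system were taken from lists on each step. Of all genes, 8.74% were higher and 5.77% lower at 4 h by the fold rule, and 1.68% and 0.799% at 24 h. These shares are the background for the counts of every list. The lists were chosen with earlier results of these data known, so a count above background is a description and not independent evidence. Of 17 measured genes that lead to type I interferon, 1 was higher at 4 h and 2 at 24 h, with 0 lower. Ifih1, an RNA sensor, lay at 3.14 ± 1.39 (SD, 2 arrays) at 4 h and 1.56 ± 0.82 at 24 h. Irf7, the factor that drives most Ifna genes, had 4 h arrays at -0.35 and -1.19 and 24 h arrays at 1.35 and 0.99, so its arrays were all below 0 at 4 h and all above 0 at 24 h. Tlr3 lay at 1.54 ± 1.83 at 24 h, Tlr4 at 1.02 ± 0.79 and its co-receptor Cd14 at 0.03 ± 0.33, none past the rule. The medians of this list were 0.08 and 0.13, close to the 0.00 and 0.02 of all genes.

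Of 5 measured genes that carry the receptor signal, Stat2 was higher at both times, at 1.14 ± 0.66 (SD, 2 arrays) and 1.41 ± 0.17. The kinase gene Jak2, which serves the interferon gamma receptor, lay at 0.09 ± 0.17 at 4 h and 0.80 ± 0.12 at 24 h. Irf9, the partner of Stat2, lay at -0.20 ± 0.73 and 0.48 ± 0.10, and Stat3 at 0.31 ± 0.10 and 0.26 ± 0.29. Among 8 inhibitors of the signal, 2 were higher at 4 h and 1 at 24 h. Socs3, a feedback inhibitor of kinase-coupled cytokine receptors, had 4 h arrays at 5.13 and 3.22 and 24 h arrays at -0.69 and 0.67, so its high ratio was found at 4 h. Usp18, which binds Ifnar2 and dampens its signal, lay at 1.69 ± 0.76 and 2.17 ± 1.23. Isg15, Pias1 and Ptpn11 did not pass, at 0.08, -0.81 and -0.10 at 4 h and 0.63, -0.78 and -0.51 at 24 h.

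Genes that respond to type I interferon included many past the fold rule at both times. Of 31 measured targets, 11 were higher at 4 h and 12 at 24 h, against 8.74% and 1.68% of all genes. As this list too was chosen with earlier results known, the excess was not tested and is not independent evidence. With 0 lower, the list had a median of 0.71 at both times. Cmpk2, a nucleotide kinase, lay at 1.81 ± 0.27 (SD, 2 arrays) at 4 h and 1.46 ± 0.17 at 24 h. The nucleic acid sensor gene Zbp1 was higher at 4 h, at 1.51 ± 0.21, and lay at -0.11 ± 0.13 at 24 h. Samhd1, which degrades nucleotides, lay at 0.89 ± 0.05 and 1.46 ± 0.59, and Trim25, which activates an RNA sensor, at 1.70 ± 0.55 and 0.63 ± 0.05. The RNA-editing enzyme gene Adar lay at 1.06 ± 0.17 and 0.95 ± 1.38. Sp100 and Pml, of the nuclear bodies, did not pass. Sp100 lay at 0.52 and 0.85 at the 2 times, and Pml had arrays at 1.15 and 0.85 at 4 h and a mean of 0.68 at 24 h. The other targets past the rule were Ifi27l2a (4.87), Ifitm3 (4.11), Ifi35 (1.72) and Rsad2 (1.33) at 4 h, and Rsad2 (2.21), Ifit3 (2.15), Ifit2 (1.93), Ifi35 (1.89), Mx1 (1.55) and Eif2ak2 (1.38) at 24 h, with Ifit1 at 0.91 and 0.71 short of it. With centring on the abundant transcripts, the 4 h ratios of Stat2, Usp18, Rsad2, Cmpk2, Ifi35, Trim25, Adar and Zbp1 turned below 0.

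Genes known as targets of interferon gamma had 3 of 23 higher at 4 h and 4 at 24 h. Of all genes, 8.74% and 1.68% were higher. The list had 0 lower and medians of 0.19 and 0.26. Irgm2, an immunity-related GTPase, lay at 2.47 ± 0.47 (SD, 2 arrays) and 1.94 ± 0.11, and Irgm1 at 1.58 ± 0.64 and 0.72 ± 0.73. Ifi47 had arrays at 1.89 and 1.12 at 4 h and a mean of 2.54 at 24 h, Gbp2 lay at 0.74 and 2.43 and Igtp at 0.41 and 1.67. Iigp1 was on different sides of 0, with arrays at -1.27 and -0.72 at 4 h and at 0.25 and 0.26 at 24 h, and Cxcl9 (-0.75 and -0.21) and Cd274 (0.23 and -1.27) did not pass. With centring on the abundant transcripts, Irgm1 and Ifi47 turned below 0 at 4 h. The lists, those of markers included, are not independent: Cd14, Ifih1, Irf1, Irf7, Irf8, Irf9, Isg15, Socs1, Stat2 and Usp18 each stand in more than one. Ifng itself lay at -0.49 ± 0.17 at 4 h and 0.09 ± 0.64 at 24 h, and the type I genes outside the rule, Ifnab and Ifnz, at -0.87 ± 0.17 and 0.32 ± 0.18 at 4 h and -0.08 and -0.13 at 24 h.

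**Figure D4:**
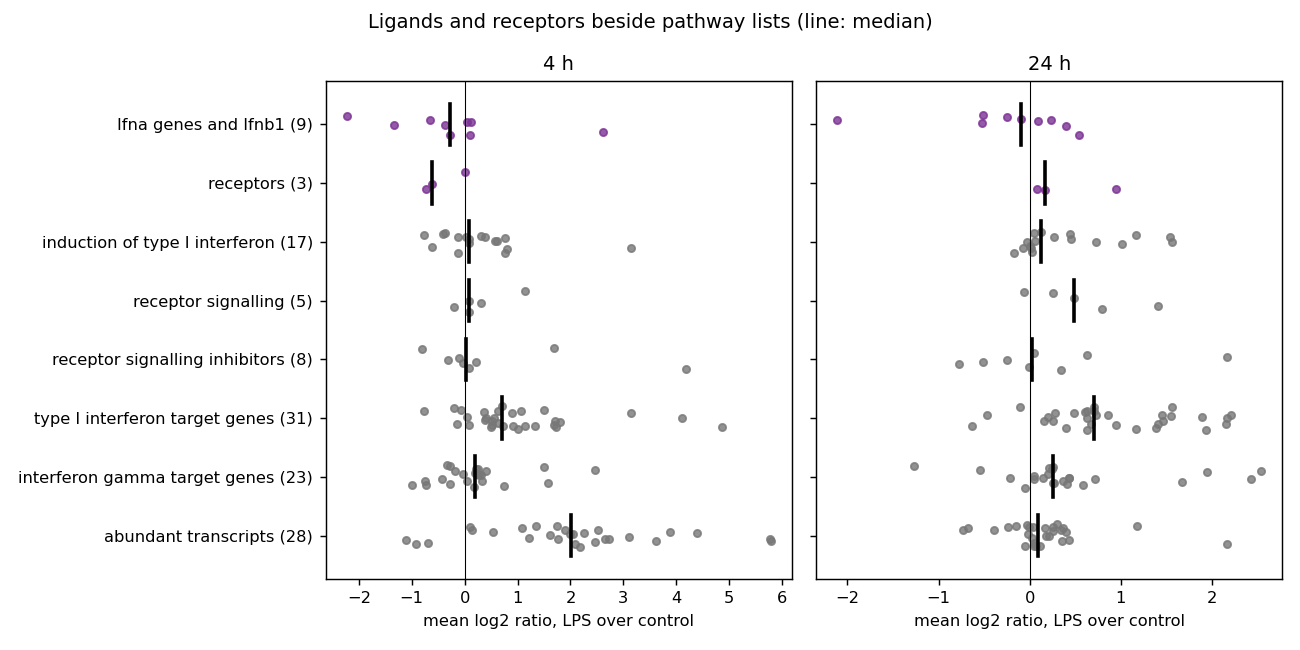
Mean log2 ratio of LPS over control (horizontal) for each measured gene of the ligands, the receptors, 5 pathway lists and the abundant transcripts at 4 h (left) and 24 h (right; the axes differ in range); a vertical bar is the list median and the count of genes stands in brackets. The ligand medians, -0.27 and -0.10, lie below the type I target median of 0.71 at both times, and the abundant transcripts stand out at 4 h alone, at 2.02.

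Markers of other cell types that can make or answer interferon were set beside these values. Of all genes, 8.74% were higher and 5.77% lower at 4 h by the rule, and 1.68% and 0.799% at 24 h. Of 10 measured macrophage and leukocyte markers, 0 were higher or lower at 4 h and 1, Coro1a, was higher at 24 h (1.05); the medians were 0.03 and 0.20. Of 4 measured plasmacytoid dendritic cell markers, known for high interferon alpha output, Cox6a2 was lower at 4 h (-1.31) and the medians were -0.68 and 0.24. Of 8 fibroblast and mural markers, Pdgfra, Dcn, Col1a1 and Acta2 were higher and Lum lower at 4 h, with a median of 0.62, and Pdgfra was higher at 24 h (1.14). The highest of those 4 h means was 1.92, for Pdgfra. Centring on the abundant transcripts, which shifted 4 h means by -1.97, turned Pdgfra, Dcn, Col1a1 and Acta2 below 0 at 4 h. Of 12 endothelial markers, 0 were higher and 1, Cdh5, was lower at 4 h (-3.47), and the medians were 0.03 and -0.06. Their part in the members' values was not tested.

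The genes whose 4 array values were most like those of the called members were found by root mean square distance on the log2 scale. For Ifna1 these were Krt1 (0.10), Fcer2a (0.14) and Pkp2 (0.14), and for Ifna4 they were Lce1c (0.16), Fmo1 (0.21) and Kif1a (0.22). Ifna9 had no close match: its nearest were Naa38 (1.13), 2700049A03Rik (1.16) and Opn4 (1.18). Likeness over 4 arrays is a description only.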

How the data were processed

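The deposited table held 1 log2 ratio per spot for 32448 spots on each of 4 arrays. Per the labels, RNA was amplified, and the 4 h arrays held long oligonucleotides. For the scanner, background correction and normalization, the method is not given in the sources used here. That the authors' values are log2 was read from the values, and each deposited column had a median of 0. Arrays were centred on that median, reversed arrays turned in sign, and spots of a gene averaged, using only the 24344 spots with 1 gene symbol (98 had several, 8006 none) in a dated platform annotation. Gene IDs of all 12 members matched RefSeq GRCm38.p6, with 0 changed symbols. Neighbouring spots with the same annotation were taken as the same oligonucleotide.

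Calls used the fold rule, and the shared response used limma 3.58.1 in R 4.3.3 (lmFit, eBayes). The fit was also run on simulated data with the same spread for every gene. That run does not show how the fit behaves on the measured genes, whose spreads differ. Number of arrays limits precision. Alternatives were other centring, scaling, quantile normalization, exact zeros as not measured, spot medians, other fold thresholds, leaving out arrays and other limma fits. Promoter stretches were aligned globally (match 1, mismatch -1, gap open -2, extension -0.5). Members and lists were chosen with earlier results of these data known. Named genes are all members, list genes past the rule plus up to 3 others per list, and the 3 genes most like each called member; marker genes named are those past the rule.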

Additional observations from a re-analysis of the deposited data

Results flagged for a closer look

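Among the members and the named pathway genes, those with both 4 h arrays on one side of 0 and both 24 h arrays on the other were singled out; the difference was not tested. Among the members these were Ifna9, with a difference of -4.72 (24 h minus 4 h), Ifnar2, with 0.89, and Ifna2, with 0.36. The Ifna2 ratios, averaged over its 2 entries, were all within 0.38 of 0. Its first entry lay at -0.91 and -0.35 at 4 h and at 0.09 and 0.30 at 24 h. The second did not share this change, at 0.15 and 0.03 and then at -0.02 and 0.00. Among the pathway genes named in the report they were Irf7, with 1.94, Iigp1, with 1.25, and Zbp1, with -1.61. The share of all genes with this pattern was not counted, so the flagged genes are not shown to exceed it. Of all genes, 31.6% had both arrays below 0 at 4 h and 31.2% had both above 0. At 24 h these shares were 25.6% and 30.3%. For Ifna9 the neighbouring spots of the arrays with LPS in Cy3 lay 5.37 apart at 4 h and 2.88 apart at 24 h, a gap reached by 1.39% and 3.93% of all neighbouring pairs on those arrays; the part of this in the difference was not tested.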

How the results depend on the processing

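At 4 h, 1 member was higher and 2 lower, and at 24 h 0 and 1; 1 was higher and 1 lower at 24 h than at 4 h. These 6 counts were the same with values as deposited, centring on named spots, scaling, quantile normalization, exact zeros as not measured, spot medians and the mean alone at 2-fold. The shared fit called 0 members under every normalization, spot choice, left-out array and limma setting run. It also called 0 of all genes in each of them, so its count says nothing particular about the members. Centring on abundant transcripts gave 0 higher and 11 lower at 4 h (0.898% and 82.8% of all genes), and 11 higher at 24 h than at 4 h (79.6% of all genes); it turned the 4 h means of Stat2 (-0.83), Usp18 (-0.28), Rsad2 (-0.64), Cmpk2 (-0.16), Ifi35 (-0.25), Trim25 (-0.26), Adar (-0.91), Zbp1 (-0.46), Irgm1 (-0.38) and Ifi47 (-0.47), since it subtracts 1 constant per array. Of 264 alternative member means, 241 moved by at most the SD of their arrays and 23 by more, and 0 called means turned in sign.

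A 1.5-fold mean gave 5 lower and 1 higher member at 4 h (13.6% and 17.0% of all genes), 1 higher at 24 h (8.98%) and 4 higher at 24 h than at 4 h (15.4%); 3-fold gave 1 lower at 4 h (2.75%). Chosen after seeing the data, the first spot of each pair gave 0 higher at 4 h (9.06% of all genes), the second 2 higher at 24 h than at 4 h (8.66%), and each oligonucleotide by itself 3 lower at 4 h (5.83% of all oligonucleotides) and 2 higher at 24 h than at 4 h (8.38%). Leaving out each array in turn gave 1 to 3 lower at 4 h, 0 to 2 higher at 24 h and 1 to 5 higher at 24 h than at 4 h, with 8.94% to 9.04%, 4.51% to 6.92% and 8.29% to 14.1% of all genes. Without the 24 h array with LPS in Cy3, the 1 lower member at 24 h was Ifna4 (-1.02), not Ifna9. The causes were not tested. Over all genes, 973 higher and 643 lower at 4 h ranged over 100 to 1892 and 306 to 9219, 187 and 89 at 24 h over 73 to 1000 and 15 to 818, and 916 and 1113 between times over 378 to 8866 and 107 to 1819. No paired analysis was possible because the labels give no replicate numbers and each time is 1 RNA pair.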
